A study of Homo sapiens with 6 samples.

Results

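RN7SK, RN7SL1, RN7SL2, RPPH1, RMRP and SNORD3A are short structured RNAs that act without being translated. The 6 genes were chosen by symbol because they lead the deposited values of TPM (transcripts per 1000000), so their abundance is given here as a description and not as a test. They are 6 of 28008 gene symbols in the count table and 6 of 25673 in the TPM table (reads per unit of gene length, scaled to a total of 1000000 in every library). RNA-seq was performed on H660 cells, an established line of neuroendocrine prostate cancer, in which doxycycline switches on a short hairpin RNA directed at MUC1, a transmembrane mucin. Cells received 0.1% DMSO as vehicle (DOX-negative, n = 3 libraries) or doxycycline at 500 ng/ml (DOX-positive, n = 3 libraries), and both groups carried the hairpin. These libraries hold a single hairpin and no control hairpin under doxycycline, so in them the agent and the silencing of MUC1 cannot be told apart. Per the study's methods, exposure to doxycycline lasted several days and RNA came from cells cultured as triplicates, and the p-values below measure the spread between these libraries. In bulk RNA, fewer cells that make an RNA and less of it per cell cannot be told apart.

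RN7SK is the scaffold of the 7SK ribonucleoprotein, in which HEXIM1, LARP7 and the capping enzyme MEPCE hold the transcription elongation kinase CDK9 with its cyclin in an inactive form. RN7SL1 and RN7SL2 encode 7SL RNA, the backbone of the signal recognition particle, which brings ribosomes that make secreted and membrane proteins to the endoplasmic reticulum. RPPH1 is the RNA of RNase P, which trims the 5′ end of tRNA precursors, and RMRP is the RNA of the related RNase MRP, which cuts precursor ribosomal RNA. SNORD3A encodes U3, a box C/D small nucleolar RNA that guides early cleavages of the same ribosomal precursor. RNA polymerase III makes the first 5 of these RNAs and RNA polymerase II makes U3. None of them carries the poly(A) tail that mRNA libraries select for, and the labels name a stranded mRNA kit.

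The 7SL genes are near-identical copies, so their reads can be assigned only where the copies differ. Over the GENCODE 29 transcripts on GRCh38, RN7SL1 and RN7SL2 were 98.3% identical. Of the 200 windows of 100 bases in RN7SL1, 106 occurred unchanged in RN7SL2. Of its 150 windows of 150 bases, 56 did, and of its 103 windows of 197 bases, 9 did. RN7SL3, a further copy, shared 24 of its 200 windows of 100 bases with RN7SL1 and none of its windows of 150 or 197 bases. The division of counts between RN7SL1 and RN7SL2 is therefore uncertain. In RefSeq, RN7SL1 also overlaps RPS29 and RN7SL2 overlaps LOC105378179, while the other 4 genes overlap no annotated gene.

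SNORD3A and RMRP are shown because they are the shortest of the 6 genes, and gene length enters their TPM most strongly, as described below. Capitals at the 3′ end mark as many bases as remained of each length once 197 bases had been subtracted, which is a length and not a site. Sequences are written 5′ to 3′ as DNA from the GENCODE 29 transcripts on GRCh38. They lie at chr17:19188016-19188232 on the plus strand and chr9:35657751-35658018 on the minus strand.
SNORD3A: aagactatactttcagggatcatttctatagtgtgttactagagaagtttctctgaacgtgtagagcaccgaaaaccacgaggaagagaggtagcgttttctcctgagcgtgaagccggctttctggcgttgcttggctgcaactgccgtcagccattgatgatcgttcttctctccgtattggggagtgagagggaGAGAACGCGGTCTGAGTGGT
RMRP: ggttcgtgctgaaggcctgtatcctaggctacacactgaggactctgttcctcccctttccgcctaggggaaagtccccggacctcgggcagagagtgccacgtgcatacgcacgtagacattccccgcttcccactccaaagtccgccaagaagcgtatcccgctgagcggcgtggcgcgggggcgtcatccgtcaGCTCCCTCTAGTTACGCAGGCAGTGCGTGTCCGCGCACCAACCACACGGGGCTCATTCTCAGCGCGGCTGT
U3 also has near-identical genes. SNORD3A differs from SNORD3B-1 and SNORD3B-2 by A78C, from SNORD3C by G108A and from SNORD3D by A4G, C53T and A78C (SNORD3A base first, counted from its 5′ end).

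The start of RN7SK, the most counted gene of all, carries the conserved GATC repeats (GAUC in RNA) that HEXIM1 is known to bind. The first 110 bases of its transcript at chr6:52995621-52995948, on the plus strand, are shown with GATC in capitals.
RN7SK: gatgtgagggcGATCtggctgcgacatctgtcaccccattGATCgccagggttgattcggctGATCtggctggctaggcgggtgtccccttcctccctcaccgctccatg
GATC, which reads the same on both strands, stood at bases 12-15, 41-44 and 63-66. Among 201525 GENCODE 29 transcripts of at least 110 bases, 24.5% held GATC in their first 110 bases and 0.367% held it at least 3 times.

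Total counts were 47620696 to 74061121 per library, and TMM factors (the edgeR scaling for library composition) were 0.967 to 1.03. MUC1, the silenced gene, had CPM (TMM-scaled counts per 1000000) of 88.2, 90.2 and 79.6 in DOX-negative replicates 1 to 3 and 36.7, 37.2 and 29.9 in DOX-positive replicates 1 to 3, a log2 fold change of -1.32 with an adjusted p of 0.000173 (edgeR quasi-likelihood test). The neuroendocrine marker CHGA had between 9307 and 14758 counts in every library, whereas KLK3, a marker of luminal prostate cells, had 0 in each. Of the 7 neuroendocrine markers, 2 were called in edgeR, INSM1 (log2 fold change of -0.45, adjusted p = 0.0389) and NCAM1 (-0.50, adjusted p = 0.0142), both lower. Over all tested genes, 4.87% were called. Log2 fold changes were negative for 5 of the 7 and positive for 2, CHGB (0.29, adjusted p = 0.175, edgeR) and ENO2 (0.13, adjusted p = 0.708, edgeR). Of the markers of other cell types, PTPRC, CD3E and COL3A1 had at most 1 count per library. The endothelial marker PECAM1 had 6, 1 and 5 counts in DOX-negative replicates 1 to 3 and 0, 4 and 4 in DOX-positive replicates 1 to 3. However, CD68 (log2 fold change of 0.78, adjusted p = 0.0189), VWF (0.97, adjusted p = 0.0176), CDH5 (0.94, adjusted p = 0.0132), COL1A1 (0.60, adjusted p = 0.0187) and LUM (1.06, adjusted p = 0.0297) rose in edgeR from low levels. COL1A2, a collagen chain and the most abundant fibroblast marker in DOX-negative libraries, had 18.1 ± 3.48 CPM in DOX-negative and 11.1 ± 3.77 CPM in DOX-positive libraries (n = 3 each), with groups that did not overlap, as for 28.1% of tested genes, and a log2 fold change of -0.71 (adjusted p = 0.203, edgeR). The summed CPM was 1.08 to 1.20 and then 1.83 to 2.00 for the 4 leukocyte markers, 3.09 to 4.76 and then 6.24 to 8.35 for the 3 endothelial markers, and 25.2 to 30.6 and then 23.5 to 27.9 for the 6 fibroblast markers, DOX-negative first, and their part in the results below was not tested.

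The 6 RNAs held 13.6% ± 2.12 (SD, n = 6 libraries) of all counts and 78.1% ± 3.09 of all TPM, and they took the first 6 ranks of the TPM table. Their summed share of counts was 12.8%, 12.0% and 14.4% in DOX-negative replicates 1 to 3 and 11.3%, 17.2% and 14.1% in DOX-positive replicates 1 to 3. Their summed share of TPM was 77.2%, 75.8% and 81.0% in the DOX-negative libraries and 73.6%, 81.6% and 79.1% in the DOX-positive libraries, in the same order. The lowest and the highest shares on both scales belonged to 2 libraries of the same group, DOX-positive replicates 1 and 2. All other genes together were left with 18.4% to 26.4% of the TPM.

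RN7SK alone held 6.64% ± 0.655 of the counts and 25.6% ± 2.23 of the TPM (n = 6). RN7SL2 held 2.33% ± 0.503 of the counts and 11.7% ± 1.46 of the TPM, and RN7SL1 held 1.43% ± 0.415 and 7.19% ± 1.46. RPPH1 held 1.94% ± 0.459 of the counts and 6.89% ± 0.880 of the TPM, and RMRP held 0.329% ± 0.0760 and 2.38% ± 0.339. SNORD3A stood apart from the others in how far its standing differed between the scales. It held 0.966% ± 0.336 of the counts, the fifth value among the 6 RNAs, but 24.3% ± 5.43 of the TPM, next to RN7SK. RMRP, the lowest of the 6 by TPM with a mean of 23783, was 4.70 times as high as the next gene, SNORA73A, a box H/ACA small nucleolar RNA with a mean TPM of 5057. SNORA73B, SCARNA10 and the histone genes HIST1H4E and HIST1H3B followed, with mean TPM of 2648, 2549, 2386 and 2176.

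**Figure D1:**
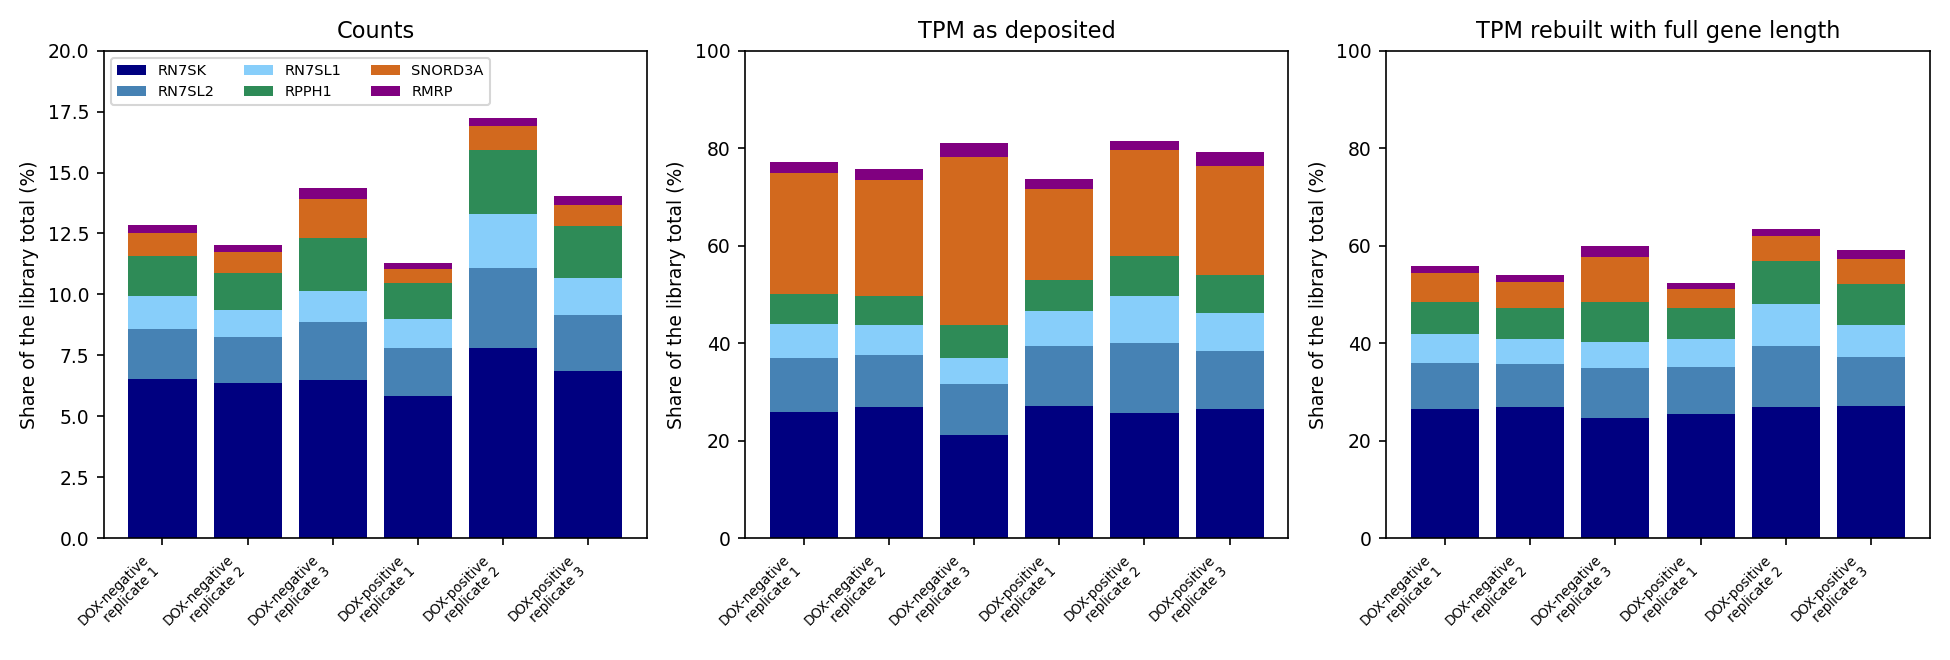
Stacked bars of the share of each library's total (vertical axis, %) held by the 6 RNAs in 3 DOX-negative and 3 DOX-positive libraries, for counts (axis to 20%), deposited TPM and TPM rebuilt with the full gene length (axes to 100%). The SNORD3A segment is a thin band in the counts and the rebuilt TPM but holds 18.6% to 34.5% of the deposited TPM.

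The difference between the scales followed the length by which counts had been divided. In every library the ratio of counts to TPM was proportional to gene length minus 196.44 to 197.12 bases. The offset was worked out from RN7SK, RN7SL1, RN7SL2, RPPH1 and SNORD3A, and with it the implied length of all 17941 other genes with counts in every library came out as a whole number within 0.05 base. Some programs that estimate TPM divide by such an effective length, the gene length less a mean fragment length, and the program used here is not given in the sources used here. RN7SK was treated as 332 bases and RPPH1 as 341 bases long, which left 135.2 and 144.2 effective bases on average. RN7SL1 and RN7SL2 were both treated as 299 bases long, which left 102.2, and RMRP as 268, which left 71.2. SNORD3A, at 217 bases, was left with 20.2. Before rescaling to the common total, division by the effective length in place of the full length weighted SNORD3A by 10.7, compared with 2.46 for RN7SK, 2.93 for the 7SL genes, 2.36 for RPPH1 and 3.76 for RMRP. After rescaling, the mean TPM was 243001 as deposited and 58129 by full length for SNORD3A, against 255740 and 262647 for RN7SK. The median gene in the table was 2936 bases long, and among the 14822 genes of at least 2000 bases the median factor was 1.05.

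**Figure D2:**
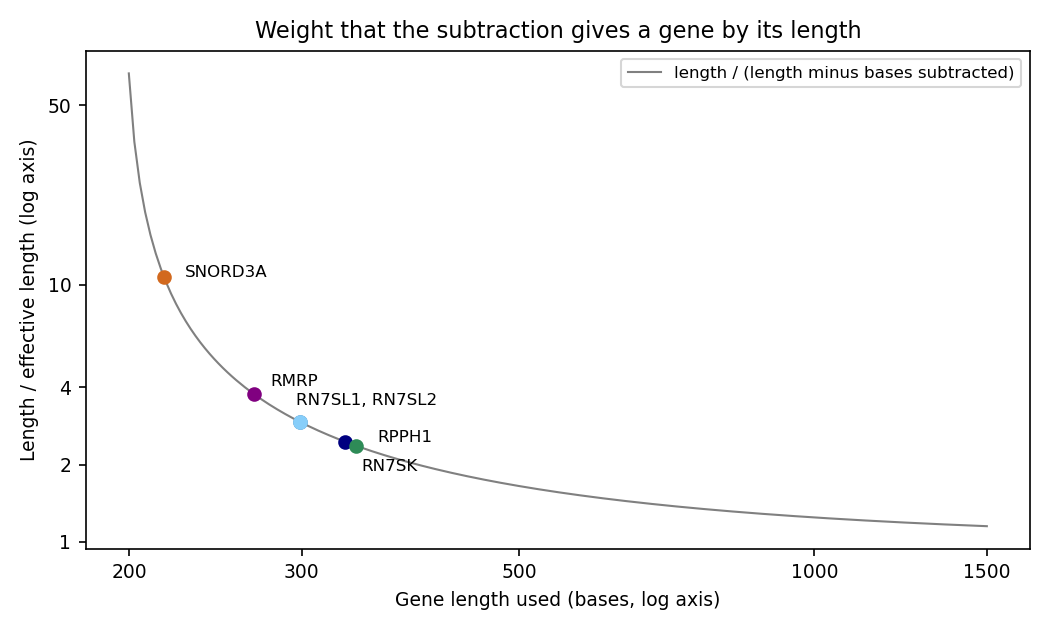
Gene length divided by effective length (vertical axis, log scale) against the gene length used (horizontal axis, bases, log scale); the line is the relation for a subtraction of 197 bases and the points are the 6 RNAs. SNORD3A sits at 10.7, on the steep part of the line, and the other 5 lie between 2.36 and 3.76.

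The 33 genes of under 250 bases, SNORD3A among them, held 25.5% of the deposited TPM, and the 64 genes of 250 to 349 bases, which include the other 5 RNAs, held 54.1%. With counts divided by the full length instead, the same length classes held 6.03% and 52.0%. The shortest implied length in the TPM table was 200 bases. A further 2335 count symbols had no TPM value. Of the 2313 of these with a RefSeq entry, 99.6% spanned fewer than 198 bases, and they included 1759 microRNA and 484 small nucleolar RNA genes. They held 0.0421% to 0.0753% of the counts.

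With the full length in place of the effective length, the 6 RNAs held 57.4% ± 4.08 of the TPM, and SNORD3A moved from the second to the fifth place among them. Its share of TPM rebuilt in this way was 5.81% ± 1.83, against 26.3% ± 0.934 for RN7SK, 10.1% ± 1.28 for RN7SL2, 7.40% ± 1.16 for RPPH1, 6.21% ± 1.24 for RN7SL1 and 1.61% ± 0.322 for RMRP. In deposited TPM, RN7SK exceeded SNORD3A in 5 of 6 libraries and RN7SL1 exceeded RPPH1 in 4 of 6, so those neighbours were not separated in every library. The other neighbours in that order, SNORD3A over RN7SL2, RN7SL2 over RN7SL1 and RPPH1 over RMRP, held in 6 of 6. In TPM by full length, RN7SL1 exceeded SNORD3A in 4 of 6 libraries, and the ratio of RN7SL1 to SNORD3A over all 6 was 0.577 to 1.66. The remaining neighbours kept their order in 6 of 6, although RPPH1 exceeded RN7SL1 by as little as 1.03-fold.

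In DOX-negative replicate 3 a high SNORD3A went together with a low RN7SK on the TPM scale but not in the counts. SNORD3A held 0.936%, 0.830% and 1.60% of the counts in DOX-negative replicates 1 to 3 and 24.8%, 23.7% and 34.5% of the TPM. RN7SK held 6.51%, 6.38% and 6.47% of the counts in the same libraries, a mean of 6.45% ± 0.0684, so its counts barely differed. Its share of TPM was nevertheless 25.9%, 27.0% and 21.2%, a mean of 24.7% ± 3.08, and was lowest in the library where SNORD3A was highest. In the DOX-positive libraries the relation between the scales turned around for RN7SK, with 5.83%, 7.79% and 6.85% of the counts (6.82% ± 0.982) against 27.1%, 25.7% and 26.6% of the TPM (26.5% ± 0.747). DOX-positive replicate 2 thus had the highest RN7SK share of counts and the lowest RN7SK share of TPM in its group.

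Exposure to doxycycline was not followed by a change in any of the 6 RNAs that passed the test. In edgeR, 0 of 6 were called at an adjusted p under 0.05 and 0 had an unadjusted p under 0.05, and DESeq2 and limma-voom also called 0, where edgeR called 4.87% of 17026 tested genes and gave 21.1% an unadjusted p under 0.05. The groups overlapped for all 6, where 28.1% of tested genes had groups that did not overlap. RN7SL1, RN7SL2, RPPH1 and RN7SK were higher on average in the DOX-positive libraries, and SNORD3A and RMRP were lower. The median log2 fold change of the 6 was 0.17, against 0.00034 over all tested genes.

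RN7SL1 had the largest positive fold change among the 6, without passing the test. It held 1.32%, 1.10% and 1.27% of the counts in DOX-negative replicates 1 to 3 and 1.17%, 2.23% and 1.48% in DOX-positive replicates 1 to 3, with a log2 fold change of 0.43 ± 0.25 (SE) and an adjusted p of 0.383 (edgeR). DOX-positive replicates 2 and 3 thus lay above all DOX-negative libraries, and DOX-positive replicate 1 lay within their range. Without DOX-positive replicate 1 the fold change was 0.63 and RN7SL1 was called, with an adjusted p of 0.0370 (edgeR). Without DOX-positive replicate 2 it was 0.11, with an adjusted p of 0.630 (edgeR).

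RN7SL2 held 2.09%, 1.89% and 2.39% of the counts in the DOX-negative libraries and 1.99%, 3.28% and 2.32% in the DOX-positive libraries, with a log2 fold change of 0.27 ± 0.19 (adjusted p = 0.467, edgeR). DOX-positive replicate 2 was again the highest, and the other DOX-positive libraries lay within the DOX-negative range. The ratio of RN7SL2 to RN7SL1 counts was 1.58, 1.73 and 1.88 in the DOX-negative and 1.70, 1.47 and 1.57 in the DOX-positive libraries. RN7SL3 had a mean of 3354 counts against 1445620 for RN7SL2 and 891392 for RN7SL1, with a log2 fold change of 0.36 (adjusted p = 0.204, edgeR).

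RPPH1 held 1.68%, 1.53% and 2.18% of the counts in the DOX-negative libraries and 1.46%, 2.63% and 2.17% in the DOX-positive libraries, with a log2 fold change of 0.23 ± 0.25 (adjusted p = 0.657, edgeR). The lowest and highest libraries were both DOX-positive. RN7SK, whose shares are given above, had a log2 fold change of 0.096 ± 0.11 (adjusted p = 0.679, edgeR). Its DOX-positive libraries lay below, above and above the DOX-negative ones, which were nearly equal.

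SNORD3A held 0.603%, 0.974% and 0.855% of the counts in the DOX-positive libraries against the 0.936%, 0.830% and 1.60% given above, a log2 fold change of -0.45 ± 0.33 (adjusted p = 0.505, edgeR). DOX-negative replicate 3 was the highest library and the other DOX-negative libraries lay within the DOX-positive range. RMRP, the least counted of the 6, held 0.303%, 0.289% and 0.451% in the DOX-negative libraries and 0.232%, 0.324% and 0.377% in the DOX-positive libraries, with a log2 fold change of -0.14 ± 0.24 (adjusted p = 0.793, edgeR). DOX-negative replicate 3 was again the highest and DOX-positive replicate 1 the lowest.

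The 95% intervals of the log2 fold changes show what these libraries could not separate. They ran from -0.15 to 0.34 for RN7SK, from -0.16 to 1.02 for RN7SL1, from -0.16 to 0.70 for RN7SL2, from -0.36 to 0.83 for RPPH1, from -0.73 to 0.44 for RMRP and from -1.27 to 0.37 for SNORD3A. All 6 RNAs were among the 8 most counted genes, yet the SE of SNORD3A (0.33) was exceeded by only 7 and that of RN7SK (0.11) by 73 of the 1000 most counted genes, whose median SE was 0.079. Exact two-sided permutation tests of each RNA, 3 against 3 libraries, gave p from 0.30 to 0.70, where the smallest p this design allows is 0.10.

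**Figure D3:**
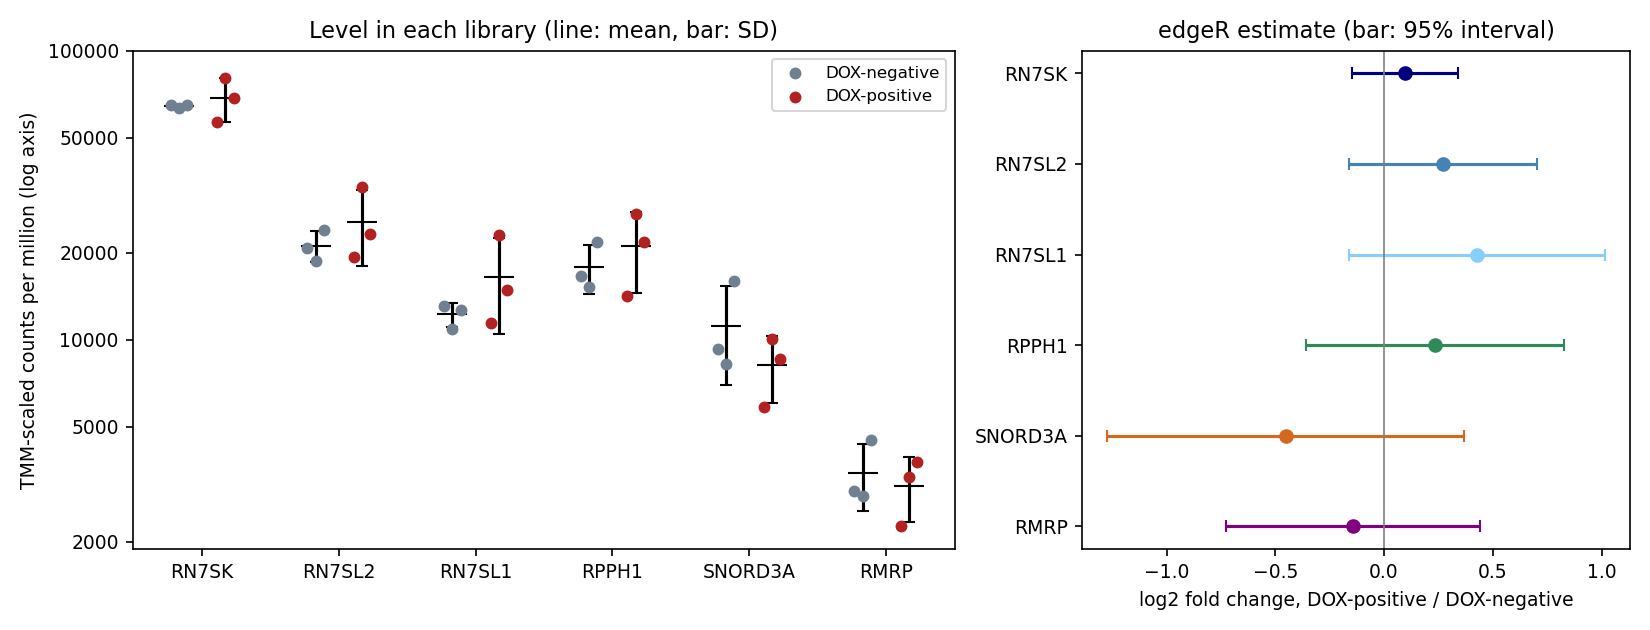
Left, TMM-scaled CPM (log axis) of the 6 RNAs in each DOX-negative (grey) and DOX-positive (red) library, with mean and SD of 3; right, edgeR log2 fold change (DOX-positive over DOX-negative) with its 95% interval. The groups overlap for every RNA and every interval includes 0.

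For all 6 RNAs the ratio of the highest to the lowest share, in the group with the wider spread, exceeded the ratio of the group means, in either direction. The first ratio takes extremes of 3 libraries and the second takes means, so groups that overlap favour the first. Neither this comparison nor the next was made over all tested genes, so neither marks a trait of these 6 RNAs. DOX-positive replicate 2 held a larger share than DOX-positive replicate 1 in 6 of 6, by 1.34-fold for RN7SK, 1.90-fold for RN7SL1, 1.65-fold for RN7SL2, 1.80-fold for RPPH1, 1.39-fold for RMRP and 1.62-fold for SNORD3A. By comparison, the ratio of the group means of the shares was between 0.722 for SNORD3A and 1.33 for RN7SL1. In log2 CPM over the 6 libraries, RN7SK correlated with RN7SL1 (Pearson r = 0.93, Spearman rho = 0.89), RN7SL2 (r = 0.91, rho = 0.89) and RPPH1 (r = 0.89, rho = 0.94), and less with RMRP (r = 0.49, rho = 0.77) and SNORD3A (r = 0.40, rho = 0.71). These values are a description over 6 libraries, and each library's depth and composition are shared by all genes measured in it. Without DOX-positive replicates 1 and 2, the farthest in RN7SK, the r over the remaining 4 libraries was 0.91 for RN7SL1, 0.63 for RN7SL2, 0.70 for RPPH1, 0.40 for RMRP and -0.19 for SNORD3A. RMRP and SNORD3A, which act on the same ribosomal precursor, had an r of 0.90 that was 0.13 without DOX-negative replicate 3 and DOX-positive replicate 1.

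The genes whose log2 CPM was most like that of RN7SK, among 14586 that averaged 50 counts or more, were EHD4 (r = 0.99), CYP2E1 (r = 0.99), FCGRT (r = 0.98), MRI1 (r = 0.98) and AVPI1 (r = 0.98). They had a mean of 96.5 to 1180 counts. These are the highest of 14586 values of r, each over only 6 libraries, and the median r was 0.022. So many values over so few libraries include high ones without any link between the genes, and a link to RN7SK was not tested. RN7SL1 stood at rank 57, RN7SL2 at rank 107 and RPPH1 at rank 154 in the same order, with RMRP at rank 3343 and SNORD3A at rank 4243, and 132 genes had an r above 0.9.

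Other genes that encode the same RNAs were barely counted. RN7SL3 and the pseudogene RN7SL832P held 0.146% of the counts of the 7SL family. SNORD3C and SNORD3D had means of 2737 and 440.5 counts against 582960 for SNORD3A, and the 12 further SNORD3 genes together held 0.543% of the family. SNORD3B-1 and SNORD3B-2, which are identical to each other over their 217 bases and differ from SNORD3A by 1 base, were listed at 0 counts in every library, as were 8 of the 13 SNORD3 symbols in all. Reads within SNORD3B-1 and SNORD3B-2 cannot be told apart, so their 0 counts do not show how much U3 RNA they made. SNORD3C had a log2 fold change of -0.61 (adjusted p = 0.246, edgeR) and SNORD3D had a log2 fold change of -0.23 (adjusted p = 0.232, edgeR), and neither was called.

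The protein partners of the 6 RNAs were examined next, in lists written with earlier results of these data known. Over all 17026 tested genes, 21.1% had an unadjusted p under 0.05 and 4.87% were called, and the counts below stand beside those shares. None of the 20 proteins of the 7SK particle and its elongation kinase was called in edgeR, and 3 had an unadjusted p under 0.05. LARP7, which binds the 3′ end of 7SK, had 37.7 ± 5.31 CPM without doxycycline and a log2 fold change of 0.061 (adjusted p = 0.859, edgeR). MEPCE had a log2 fold change of 0.14 (adjusted p = 0.391, edgeR), HEXIM1 of -0.068 (adjusted p = 0.714, edgeR) and CDK9 of -0.047 (adjusted p = 0.769, edgeR).

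Among the 8 proteins of the signal recognition particle and its receptor, 0 were called in edgeR and 2 had an unadjusted p under 0.05. SRP9, which binds the Alu domain of 7SL RNA together with SRP14, had 136.0 ± 29.6 CPM in DOX-negative and 85.0 ± 15.6 CPM in DOX-positive libraries (n = 3 each). Its groups did not overlap, as was so for 4 of these 8 genes and for 28.1% of all tested genes. The log2 fold change of SRP9 was -0.68 ± 0.17 with an adjusted p of 0.0645 (edgeR), which was 0.000329 in DESeq2, 0.0347 without robust estimation and 0.0284 without DOX-negative replicate 1 (edgeR). It was 0.0686 in limma-voom, 0.175 in edgeR with a minimum of 1 count, and 0.119 to 0.161 in edgeR when DOX-negative replicate 2 or 3 or DOX-positive replicate 2 or 3 was left out. SRP14 had a log2 fold change of 0.12 (adjusted p = 0.538, edgeR) and SRP54, the subunit that binds signal sequences, of -0.068 (adjusted p = 0.740, edgeR).

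Of the 10 tested proteins of RNase P and RNase MRP, 0 were called in edgeR and 1 had an unadjusted p under 0.05. POP1, the largest protein of both enzymes, had a log2 fold change of -0.067 (adjusted p = 0.677, edgeR) and RPP30 of 0.077 (adjusted p = 0.664, edgeR). Of 19 proteins of the U3 particle and of box C/D particles, 0 were called and 0 had an unadjusted p under 0.05. Log2 fold changes were 0.0037 for the methyltransferase FBL (adjusted p = 0.985, edgeR), a sign that turned under 4 other settings, 0.11 for NOP58 (adjusted p = 0.755, edgeR) and 0.095 for the U3 protein RRP9 (adjusted p = 0.644, edgeR).

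The machinery that transcribes 5 of the 6 RNAs did not pass the test either. Of 18 RNA polymerase III subunits, 0 were called in edgeR and 0 had an unadjusted p under 0.05, and of 20 initiation factors and regulators, 0 were called and 1 had an unadjusted p under 0.05. POLR3G and POLR3GL, alternative subunits of the enzyme, had log2 fold changes of 0.63 (adjusted p = 0.268, edgeR), from a mean of 0.580 CPM, and 0.11 (adjusted p = 0.518, edgeR). The repressor MAF1 had a log2 fold change of -0.021 (adjusted p = 0.917, edgeR). The initiation factors BRF1 and BRF2 had values of -0.055 (adjusted p = 0.780, edgeR) and -0.17 (adjusted p = 0.329, edgeR), and SSB (La), which binds the 3′ ends of new polymerase III transcripts, of 0.039 (adjusted p = 0.905, edgeR). Of all the partner and polymerase III lists above, DESeq2 called 1 gene, SRP9, and limma-voom called 0.

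Among 19 tested noncoding RNAs of similar kinds, 2 were called in edgeR, in opposite directions, and 9 had an unadjusted p under 0.05, where the shares over all genes were 4.87% and 21.1%. DESeq2 called 3 and limma-voom 2. BCYRN1 (BC200), a neuronal RNA made by polymerase III whose Alu-derived sequence has many relatives in the genome, rose from 3.12 ± 0.461 to 5.78 ± 1.05 CPM, a log2 fold change of 0.88 (adjusted p = 0.0124, edgeR). RNU12, the U12 RNA of the minor spliceosome, fell from 6.18 ± 0.515 to 3.63 ± 0.220 CPM, a log2 fold change of -0.77 (adjusted p = 0.00652, edgeR). The groups (n = 3 each) did not overlap for either RNA, as for 28.1% of all tested genes. Neither call was kept without DOX-negative replicate 3, where adjusted p was 0.0847 for BCYRN1 and 0.0571 for RNU12 (edgeR), and that of BCYRN1 was also lost without DOX-negative replicate 2 (adjusted p = 0.0527, edgeR). TERC, the telomerase RNA, had a log2 fold change of 0.31 (adjusted p = 0.136, edgeR) and RNU4-1, which has a near-identical copy in RNU4-2, of -1.32 (adjusted p = 0.171, edgeR). All 3 tested nuclear long noncoding RNAs had negative log2 fold changes, 3 had an unadjusted p under 0.05 and 1, NEAT1, was called in edgeR. NEAT1 fell from 788.9 ± 109.2 to 588.6 ± 32.8 CPM (log2 fold change of -0.42, adjusted p = 0.0301, edgeR). That call was lost when DOX-negative replicate 2 or 3 or DOX-positive replicate 2 or 3 was left out (adjusted p of 0.0603, 0.122, 0.0663 and 0.0826 in that order, edgeR). MALAT1 had a log2 fold change of -0.47 (adjusted p = 0.123, edgeR) and KCNQ1OT1 of -0.61 (adjusted p = 0.149, edgeR). Of these 3, DESeq2 called MALAT1 and NEAT1, and limma-voom called 1.

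Because TPM values add to the same total in every library, the share that the 6 RNAs took set the level of all other genes. The total left to other genes differed 1.43-fold between DOX-positive replicates 1 and 2. For 14495 other genes that averaged 50 counts or more, the median of log2 TPM minus the mean of the 6 libraries was 0.058, 0.14 and -0.24 in DOX-negative replicates 1 to 3 and 0.32, -0.27 and 0.0088 in DOX-positive replicates 1 to 3, a 1.50-fold range. The libraries in which the 6 RNAs held most, DOX-positive replicate 2 and DOX-negative replicate 3, were those in which the other genes were lowest. With the 6 RNAs removed and TPM rescaled to the same total, the range of these medians was 1.08-fold, and the values of other genes were multiplied by 3.79 to 5.42, depending on the library.

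Removal of RN7SK alone did not have this effect. The median coefficient of variation (CV) of the other genes over 3 replicates was 14.2% in DOX-negative and 21.5% in DOX-positive libraries in the deposited TPM, 17.7% and 22.4% without RN7SK, and 5.83% and 9.32% without all 6 RNAs. With the full length and all genes kept it was 7.83% and 16.3%. The number of other genes with a mean TPM of at least 1 was 11701 as deposited and 14453 without the 6 RNAs.

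**Figure D4:**
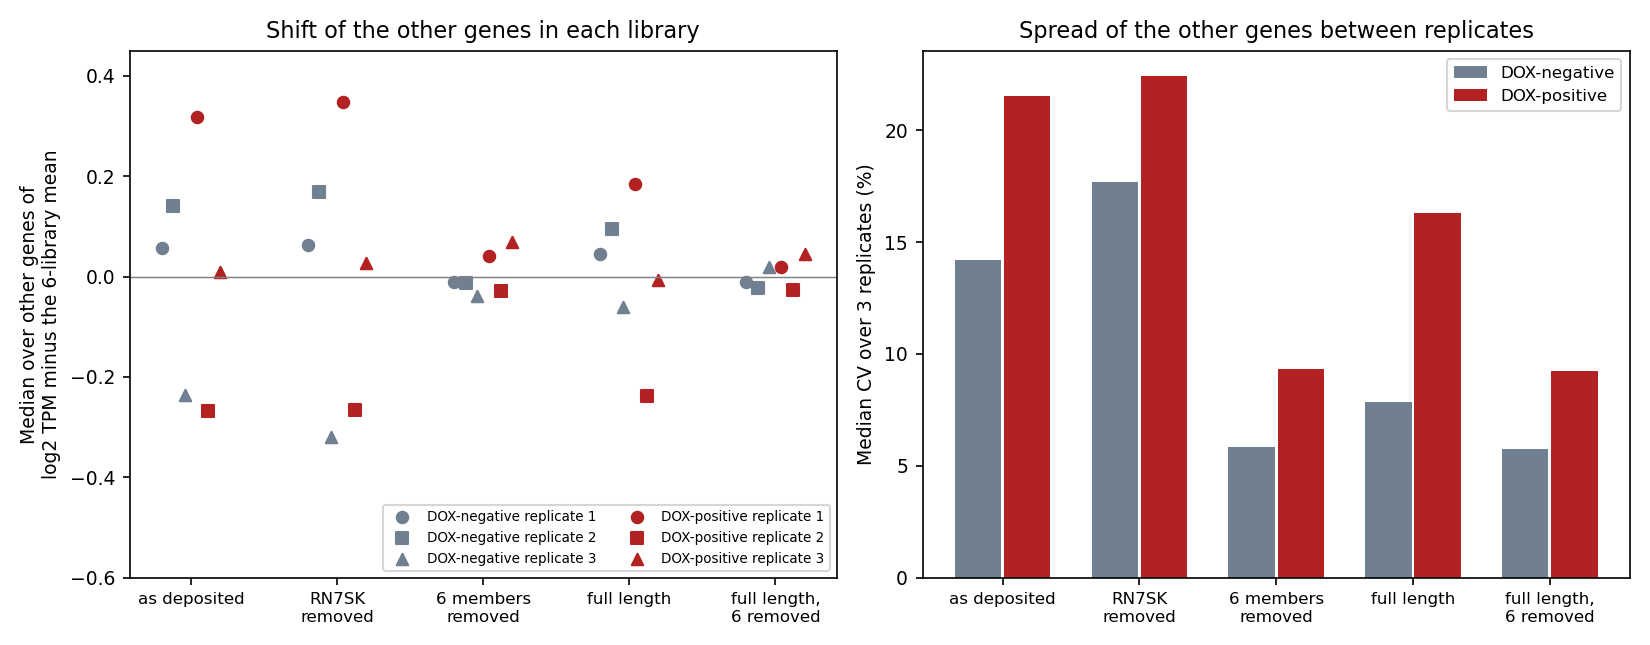
Left, median over 14495 other genes of log2 TPM minus its mean over the 6 libraries, per library; right, median CV over 3 replicates (%), both for TPM as deposited, without RN7SK, without all 6 RNAs, with the full gene length, and with full length and without the 6. The library medians spread over 1.50-fold as deposited and 1.08-fold without the 6 RNAs, while removal of RN7SK alone left a 1.59-fold spread.

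ACTB, the cytoskeletal beta-actin, had deposited TPM of 1019, 1091 and 810.9 in DOX-negative replicates 1 to 3 and 1228, 908.9 and 1028 in DOX-positive replicates 1 to 3. Its CV within groups was 14.9% and 15.3%. Without the 6 RNAs its TPM was 4468, 4502 and 4277 and then 4661, 4930 and 4926, with CVs of 2.75% and 3.18%. EEF1A1, a translation elongation factor, went in the same way from CVs of 12.2% and 18.5% to 3.08% and 2.17%. For GAPDH, a glycolytic enzyme, the CVs were 14.8% and 39.1% as deposited and still 10.3% and 24.8% without the 6 RNAs. LDHA, lactate dehydrogenase A, also kept wide CVs, at 23.5% and 57.6% as deposited and 19.6% and 40.2% without them.

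MUC1 had a deposited TPM of 27.4 ± 5.24 in DOX-negative and 11.2 ± 2.81 in DOX-positive libraries (n = 3 each), and 123.8 ± 9.07 and 51.0 ± 4.94 without the 6 RNAs. The fall of MUC1 was called in both versions, with a change on the log2(TPM + 1) scale of -1.22 (adjusted p = 0.000369, limma) as deposited and -1.26 (adjusted p = 0.00322, limma) without them. MYC, a transcription factor, had a deposited TPM of 2.85, 2.72 and 1.82 in DOX-negative replicates 1 to 3 and 4.27, 3.42 and 4.52 in DOX-positive replicates 1 to 3, so the groups did not overlap. The change of MYC on that scale was 0.56 (adjusted p = 0.447, limma) as deposited and 0.71 (adjusted p = 0.0306, limma) without the 6 RNAs. With 0.1 in place of 1 added to the deposited TPM it was 0.72 (adjusted p = 0.440, limma), so its size also depended on the value added. MYC thus passed the test without the 6 RNAs and not as deposited. On counts, MYC rose by 0.72 (adjusted p = 0.00911, edgeR).

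**Figure D5:**
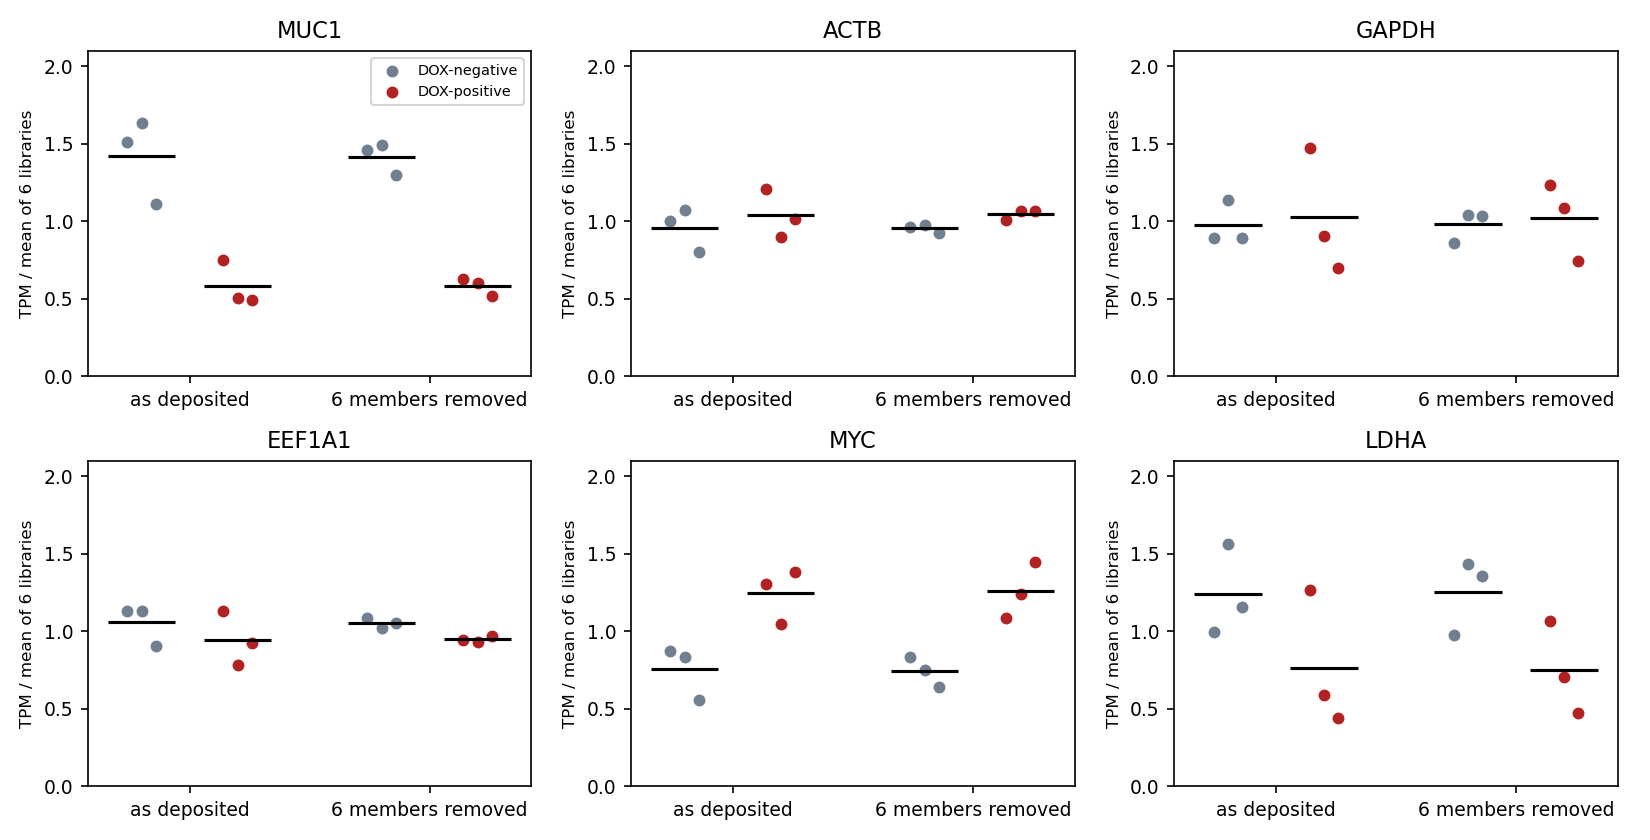
TPM of MUC1, ACTB, GAPDH, EEF1A1, MYC and LDHA divided by the mean of the 6 libraries (vertical axis), as deposited and without the 6 RNAs; points are DOX-negative (grey) and DOX-positive (red) libraries and lines are group means of 3. Points of ACTB and EEF1A1 draw together once the 6 RNAs are removed, with CVs of 2.17% to 3.18%, while those of GAPDH and LDHA stay spread.

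The same held across genes. Tested on log2(TPM + 1) with limma, 31 of 11707 genes (0.265%) were called in the deposited TPM, and the 6 RNAs were not among them, with 0 of 6 called and changes from -0.39 for SNORD3A to 0.40 for RN7SL1. Removal of the 6 RNAs gave 344 calls among 14453 genes (2.38%), 320 of which were also called on counts in edgeR, where 829 genes were called. Rescaling also raised the TPM of other genes, so more genes reached a mean of 1 and the added 1 weighed less. With 0.1 added in place of 1, 35 of 11707 genes were called in the deposited TPM. The median SE of the change was 0.21 as deposited and 0.093 without the 6 RNAs. Removal of RN7SK alone gave 22 calls with a median SE of 0.25. Full gene lengths with all genes kept, an alternative chosen after seeing the data, gave 299 calls, and full lengths without the 6 RNAs gave 404. The number of calls in the deposited TPM also moved with single libraries, from 0 when DOX-positive replicate 3 was left out to 139 when DOX-positive replicate 1 was, and leaving out DOX-negative replicates 1 and 2 in turn gave 9 and 5 calls and leaving out DOX-positive replicate 2 gave 86. On counts, 832 genes were called in edgeR when the 6 RNAs were left out of the library sizes and TMM factors, against 829 with them in.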

How the data were processed

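RNA-seq counts and TPM were taken as deposited for 3 DOX-negative and 3 DOX-positive libraries, grouped by sample title. Raw counts for each gene symbol, in a table named for STAR, were deposited by the authors, with TPM values that the authors computed; processing notes name STAR, DESeq2 and GRCh38 (hg38), and the program behind the TPM and the strand setting are not given in the sources used here. The 6 genes, the gene lists and the alternatives were chosen with earlier results of these data known. Counts (47620696 to 74061121 per library) were filtered with filterByExpr, TMM-scaled and tested with the edgeR 4.0.16 quasi-likelihood test (R 4.3.3, robust), with Benjamini-Hochberg adjustment over 17026 genes. A fold change is log2 of DOX-positive over DOX-negative with its SE from the F statistic and 95% intervals at edgeR's moderated degrees of freedom, and CPM are TMM-scaled. TPM of genes with a mean of at least 1 were tested as log2(TPM + 1) with limma 3.58.1 (trend and robust), so changes of low genes are understated. DESeq2 1.42.0 and limma-voom were alternatives. Shares were given as mean ± SD with no test. The effective length of a gene was its counts over TPM, scaled per library. Every member, 18 partner genes, called genes of the lists (up to 4 per list), the 5 genes most like RN7SK, the next 5 genes by TPM, the copies with the most counts and 6 TPM examples were named by rule; TERC and RNU4-1 were chosen after their values were seen. No within-group pair of libraries was a duplicate, with chi-square per degree of freedom of 15.7 to 96.1. The scripts were tested on simulated data. Sequences came from GENCODE 29, gene spans and overlaps from RefSeq. Some sequences and marker genes are not reported here.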

Additional observations from a re-analysis of the deposited data

How the results depend on the processing

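Of 96 alternative values of the log2 fold changes of the 6 RNAs, 93 kept their direction and 1 was called, RN7SL1 without DOX-positive replicate 1 (0.63). The number of the 6 that was called was 0 under every other alternative. RN7SK ranged from -0.032 to 0.22 and RMRP from -0.30 to 0.087 with single libraries left out. RN7SL1 ranged from 0.11 to 0.63, RN7SL2 from 0.016 to 0.44, RPPH1 from 0.0090 to 0.45 and SNORD3A from -0.63 to -0.11. The values that turned were those of RN7SK without DOX-positive replicate 2 and of RMRP without DOX-negative replicate 3 (0.087) or DOX-positive replicate 1 (0.044), and the cause was not tested. The number of genes called on counts was 1355 with DESeq2 (829 in edgeR) and 58 to 1035 with single libraries left out, being 58 when DOX-negative replicate 3 was left out, 127 when replicate 2 of that group was and 375 when DOX-positive replicate 3 was. The number called on TPM was 344 without the 6 RNAs, 299 with full gene lengths, 404 with both, 11 with no filter on low TPM and 0 to 139 with single libraries left out. Full gene lengths lowered the share of TPM of the 6 RNAs to 57.4%, and with single libraries left out it was 77.4% to 78.9%, and their share of counts 12.9% to 14.1%. FBL turned to -0.0030 with RLE factors, -0.0078 with no scaling factor, -0.0029 with at least 50 counts in 3 libraries and -0.00086 with DESeq2. Leaving out single libraries also turned LARP7 (-0.065 to 0.22), SRP54 (-0.15 to 0.045), NOP58 (-0.054 to 0.27), FBL (-0.039 to 0.048), MAF1 (-0.095 to 0.031), BRF1 (-0.15 to 0.022) and SSB (-0.097 to 0.20), none of which was called. Same-numbered libraries deviated with correlations of -0.54, 0.019 and -0.10, so the replicate numbers were not taken to pair them; with the replicate block, 998 genes were called on counts, 13 on TPM and 0 of the 6 RNAs, and SRP9 was called (-0.67, adjusted p = 0.00157, edgeR). The lowest count of any of the 6 RNAs in a library was 171098, so the spread between 3 libraries per group, not counting error, set their precision.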
